A study of Mus musculus with 6 samples.

Results

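Meningeal fibroblasts are the matrix-producing cells of the membranes around the spinal cord, and here they are 645 nuclei out of 42628 nuclei kept from the lumbar cord. A nucleus was counted as a fibroblast nucleus when it had at least 500 UMIs (unique molecular identifiers, each marking 1 captured RNA molecule), mitochondrial genes under 5% of its UMIs, and UMIs of at least 3 of 8 genes: Dcn, Slc6a13, Adamts12, Cped1, Cemip, Ranbp3l, Bmp6 and Itgbl1. It also had at most 1 UMI summed over the neuronal genes Snap25 and Rbfox3, and at most 1 summed over the myelin genes Mog, Mag and Mobp. The nuclei were thus selected on measured RNA, and every level below is a description of what that selection holds. The study sequenced single nuclei from frozen lumbar cord of C57BL/6 mice aged 110 days with the 10x Genomics 3′ method. All 6 libraries carry SOD1G93A, a human mutant superoxide dismutase transgene that causes motor neuron disease. They differ in the gene for the oxygen-sensing prolyl hydroxylase PHD1 (Egln2): 3 libraries are SOD1G93A/PHD1+/+ and 3 are SOD1G93A/PHD1-/-. The mice came from littermate pairs, the labels limit the PHD1 loss to no tissue, and no library without the transgene was analysed here, so nothing below speaks to the effect of SOD1G93A itself.

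The meninges consist of an outer dura, a middle arachnoid and an inner pia that lies on the cord, and each layer has its own fibroblasts. These cells lay down collagens and the laminins of the basement membrane, and arachnoid fibroblasts also carry transporters that move solutes between cerebrospinal fluid and blood and enzymes that make retinoic acid. Related fibroblasts sit around the larger vessels and in the sheaths of the nerve roots.

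The 3 PHD1+/+ libraries contributed 93, 173 and 98 fibroblast nuclei and the 3 PHD1-/- libraries 86, 46 and 149. Values are listed by replicate number, 1 to 3, throughout. Summed over these nuclei, the libraries held 95134, 313919 and 170247 UMIs in PHD1+/+ and 82438, 82162 and 313620 UMIs in PHD1-/-. A level is given as CPM, the UMIs of a gene in these nuclei of 1 library, scaled to a total of 1000000 UMIs. Replicate 1 of both genotypes stood apart from the other libraries. Its fibroblast nuclei had medians of 851 and 801 UMIs, against 1455 to 1851 in the other 4 libraries. Xist was read in the fibroblast nuclei of replicate 1 alone, at 1072 and 2705 CPM, together with the Y-linked gene Uty at 126 and 48.5 CPM, whereas the other 4 libraries had Uty and no Xist UMI. The labels name no pooling of animals. Among nuclei with at least 3 microglial markers, which should lack the fibroblast genes, some carried UMIs of 3 or more of the 8 genes. They were 5.36% and 3.73% in replicate 1, against 0.251% to 1.24% in the other libraries. The whole rule was met by 4, 4 and 1 microglial-marker nuclei in PHD1+/+ and 1, 0 and 1 in PHD1-/-. That was 0.511%, 0.439% and 0.207% in PHD1+/+ and 0.196%, 0% and 0.197% in PHD1-/-. Fibroblast nuclei made up 1.02%, 2.16% and 1.83% of all nuclei kept in PHD1+/+ and 1.31%, 0.622% and 2.44% in PHD1-/-. The part of free RNA in the choice of fibroblast nuclei was not tested. Among all nuclei kept, PHD1+/+ replicate 1 and PHD1-/- replicate 1 shared 86 barcodes, against 0 to 14 for the other pairs of libraries. No barcode was shared among fibroblast nuclei.

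The number of the 8 genes detected set the edge of the population. Among nuclei that passed the exclusions, 183 carried exactly 3 of the genes and were taken, 318 carried exactly 2 and were left out, and 1520 carried 1. At the other end, 3 nuclei carried all 8. Dcn encodes the small proteoglycan decorin and lies at chromosome 10, 97479609 to 97518143, of GRCm38. It had 1524, 2558 and 1797 CPM in PHD1+/+ and 1832, 2312 and 2226 CPM in PHD1-/-, against 5.45 to 75.6 CPM in all other nuclei. Slc6a13 (chromosome 6, 121300227 to 121337733) encodes the GABA and taurine transporter GAT2, and had 1030.1, 481 and 652 CPM in PHD1+/+ and 1079.6, 584 and 539 CPM in PHD1-/-, against 0.565 to 11.5 CPM elsewhere. Its 2 highest libraries were both replicate 1. Ranbp3l (chromosome 15, 8967949 to 9067335) had 347, 548 and 388 CPM in PHD1+/+ and 364, 523 and 816 CPM in PHD1-/-. It was present in only 16.1% to 34.2% of the fibroblast nuclei of a library, while Dcn was present in 58.1% to 75.8%. With each nucleus thinned to 500 UMIs, those ranges were 13% to 21.5% for Ranbp3l and 40.7% to 55.5% for Dcn. Microglial-marker nuclei had 0% to 0.6% and 0.3% to 3.8%. The fibroblast nuclei were still the ones selected at full depth, so thinning did not remove the effect of depth on the selection. These genes chose the nuclei, so their levels describe the selection and do not check the label.

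Markers of other cell classes were read in these nuclei at levels that differed by class. Neuronal markers summed to 1558 to 3059 CPM, against 9584 to 11403 CPM in all other nuclei, and 99 fibroblast nuclei carried 3 or more of them. Oligodendrocyte markers summed to 969 to 3090 CPM, against 3826 to 5696 CPM, and 85 fibroblast nuclei carried 3 or more. The same count was 37 for astrocyte markers, 14 for oligodendrocyte precursor, 11 for microglial, 10 for Schwann, 5 for endothelial and 2 for mural markers. The rule limits Snap25 and Rbfox3 of the neuronal list, and Mog, Mag and Mobp of the oligodendrocyte list. The lower sums of these lists than in all other nuclei were thus partly set by the selection. Border macrophage markers summed to 12.8 to 36.4 CPM, with Mrc1 at 0 to 12.7 CPM, and lymphocyte markers to 12.2 to 48.5 CPM. Endothelial markers summed to 60.9 to 449 CPM, against 3484 to 19276 CPM in nuclei carrying at least 3 of those markers. The mural list summed to 243 to 995 CPM, but 624 of its UMIs belonged to Atp13a5. The defining pericyte genes Rgs5 and Kcnj8 had 32 and 3 UMIs in all 645 nuclei, and Rgs5 was at 0 in PHD1-/- replicate 2 and in PHD1-/- replicate 3. The astrocyte list summed to 1051 to 1741 CPM, above the 221 to 1020 CPM of all other nuclei. Slc1a3, a glutamate transporter, made up much of that sum, at 568 to 1217 CPM. The astrocyte water channel gene Aqp4 was at 5.87 to 116 CPM, and at 24.7 to 106 CPM in all other nuclei. Schwann markers summed to 418 to 876 CPM. In all, 41, 51 and 28 fibroblast nuclei in PHD1+/+ and 30, 13 and 41 in PHD1-/- carried 3 or more markers of another class. Cldn11 counts here as an oligodendrocyte marker but is also on the arachnoid barrier list. Its part in the oligodendrocyte sum and in these counts was not tested. The part of mixed droplets in each level was not tested.

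Genes of several meningeal layers were present together. Lama1, a laminin chain of the pial basement membrane, had 137, 172 and 264 CPM in PHD1+/+ and 182, 438 and 182 CPM in PHD1-/-, with PHD1-/- replicate 2 the highest, against 7.11 to 10.8 CPM in all other nuclei. Aldh1a2, the retinoic acid-making enzyme of arachnoid fibroblasts, had 231, 252 and 335 CPM in PHD1+/+ and 121, 329 and 328 CPM in PHD1-/-, against 1.37 to 4.58 CPM. Its lowest library was PHD1-/- replicate 1. Smoc2, a calcium-binding matrix protein on the dural list, had 179, 468 and 329 CPM in PHD1+/+ and 267, 207 and 341 CPM in PHD1-/-, and 4.55 to 7.99 CPM elsewhere. Klf5, a transcription factor on the arachnoid barrier list, had 126 to 328 CPM, and Cldn1, a tight junction claudin on that list, 36.4 to 99.9 CPM. Of the nerve root sheath list, Itgb4 (integrin beta 4) had 63.1, 274 and 182 CPM in PHD1+/+ and 158, 109.5 and 322 CPM in PHD1-/-, and Pi16 had 70.1 to 153 CPM. Itgb4 was lowest in PHD1+/+ replicate 1 and the genotypes overlapped.

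Some layer genes shared nuclei and others did not. Lama1 had a UMI in 95 of the 645 nuclei and Itgb4 in 104, and no nucleus had both, although Lama1 occurred in 14.7% of all fibroblast nuclei. By contrast, Itgb4 and Smoc2 shared 71 nuclei, 68.3% of those with Itgb4 and 43.6% of those with Smoc2. Klf5 shared 52 nuclei with Itgb4, 50% of those with Itgb4, and 69 with Smoc2, 42.3% of those with Smoc2, and it occurred in 24.2% of all fibroblast nuclei. Aldh1a2 and the P-type ATPase gene Atp13a5 shared 53 nuclei, 37.1% of those with Aldh1a2 and 48.6% of those with Atp13a5. Col15a1, a basement membrane collagen on the perivascular list, shared 6 nuclei with Itgb4 and 22 with Lama1. These pairs are described for 7 genes taken from the layer lists and the clusters after their values were seen, and detection in a nucleus depends on its depth.

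Genes of the perivascular fibroblast list were present in every library. All 8 were higher in fibroblast nuclei than in all other nuclei in each of the 6 libraries, and they summed to 2135 to 4004 CPM, against 73 to 133 CPM. Lama2, the laminin alpha 2 chain whose loss causes a congenital muscular dystrophy, had 1240.4, 1854 and 1786 CPM in PHD1+/+ and 1237, 2191 and 1757 CPM in PHD1-/-, against 25.3 to 66 CPM in all other nuclei. Mural nuclei, chosen by mural markers, were closer: in replicates 2 and 3 they had 724 to 1173 CPM of Lama2. Their list sum was 1171 to 1844 CPM, against 3330 to 4004 CPM in the fibroblast nuclei of those libraries. Pdgfra, the receptor that marks fibroblasts and oligodendrocyte precursors, had 84.9 to 287 CPM against 13.4 to 26.2 CPM. The pial list was higher in all 6 libraries for 6 of its 8 measured genes, the inner arachnoid list for 6 of its 10 measured genes, the selecting gene Slc6a13 being 1 of the 10, the dural list for 5 of its 9 measured genes, the nerve root sheath list for 6 of its 11 measured genes and the arachnoid barrier list for 5 of its 10 measured genes. The same share over all genes is not given here. In replicates 2 and 3 the arachnoid barrier list summed to 1217 to 1916 CPM, below the 2895 to 4498 CPM of endothelial nuclei. Abcb1a is on the arachnoid barrier list and also among the markers that chose the endothelial nuclei, so that sum was partly set by their selection. The pial list, at 734 to 1156 CPM, overlapped mural (104 to 1723 CPM) and endothelial nuclei (338 to 2275 CPM). The dural list overlapped endothelial nuclei, and the inner arachnoid and nerve root sheath lists lay above both classes.

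Basement membrane genes summed to 3353 to 6682 CPM, against 291 to 384 CPM in all other nuclei, and 18 of its 20 measured genes were higher in all 6 libraries. In replicates 2 and 3, where each library had at least 11 endothelial and 23 mural nuclei by the same exclusions, mural nuclei summed to 3026 to 4244 CPM and endothelial nuclei to 926 to 2559 CPM. The fibroblast nuclei of those libraries lay above both, at 5703 to 6682 CPM. The laminin chain Lamc1 had 291 to 724 CPM and the linker Nid1 189 to 438 CPM. The type IV collagen chains of the X chromosome, Col4a5 and Col4a6, had 158 to 645 CPM and 220.0 to 402 CPM, against 9.98 to 15.1 CPM and 1.01 to 4.21 CPM in all other nuclei. Nid1 did not set fibroblasts apart from mural nuclei, which had 177 to 557 CPM.

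Fibrillar collagens were likewise higher than in all other nuclei. Col1a2, a chain of type I collagen, had 242, 573 and 681 CPM in PHD1+/+ and 364, 645 and 615 CPM in PHD1-/-, against 6.43 to 36.8 CPM in all other nuclei, and Col3a1 had 284 to 669 CPM against 1.07 to 19.2 CPM. The lowest library for both was PHD1+/+ replicate 1. The list summed to 1892 to 3536 CPM, against 360.0 to 473 CPM. In replicates 2 and 3 mural nuclei reached 395 to 1183 CPM. Not every collagen separated the nuclei: Col11a1 had 141 to 243 CPM here and 118 to 171 CPM elsewhere.

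Secreted matrix proteins and the enzymes that shape them were abundant alongside the collagens. Cemip, a hyaluronan-degrading protein and 1 of the 8 selecting genes, had 1229.8, 1299.7 and 1228 CPM in PHD1+/+ and 1444, 2446 and 1387 CPM in PHD1-/-. It was highest in PHD1-/- replicate 2. Apolipoprotein D (Apod), a secreted lipid carrier, had 7873, 7757 and 5298 CPM in PHD1+/+ and 6926, 7193 and 6329 CPM in PHD1-/-, against 294 to 964 CPM in all other nuclei. Timp3, an inhibitor of metalloproteinases, had 230.5 to 561 CPM against 47.6 to 64.1 CPM. Efemp1, a fibulin, had 84.1 to 593 CPM against 9.94 to 14.3 CPM, and Ltbp1, which holds latent TGF-beta in the matrix, had 146 to 523 CPM against 19.6 to 27.7 CPM. Igfbp7 and Sparcl1 were not specific: mural nuclei of replicates 2 and 3 had 1218 to 1613 CPM of Igfbp7, against 268 to 395 CPM in fibroblast nuclei.

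Slc7a11 led the genes outside the selecting set when genes were ranked by their smallest ratio to all other nuclei over the libraries. It encodes the light chain of the cystine-glutamate exchanger and lies at chromosome 3, 49892526 to 50443614. It had 662, 1045 and 963 CPM in PHD1+/+ and 752, 1753 and 800.3 CPM in PHD1-/-, against 4.73 to 17.4 CPM elsewhere, and with 20 CPM added to both sides the smallest ratio among the 6 libraries was 18.2. Fibroblast nuclei, 645 of 42628, held 16.2% to 52.7% of the Slc7a11 UMIs of a library. Slc6a20a, a proline transporter, had 210.2 to 625 CPM and was higher still in mural nuclei of replicates 2 and 3, at 710.4 to 1044 CPM. Abca8a, a lipid-transporting ABC protein, had 352 to 962 CPM against 18.5 to 32.7 CPM in all other nuclei. The organic anion transporter Slc22a8 was low, at 0 to 63.8 CPM, and endothelial nuclei had 116 to 442 CPM.

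Retinoid genes were present at several steps of the pathway. Besides Aldh1a2, the second retinaldehyde dehydrogenase Aldh1a1 had 146 to 493 CPM against 13 to 42.1 CPM in all other nuclei, and the receptor Rarb had 94.6 to 258 CPM against 34.2 to 44.5 CPM. Stra6, the retinol uptake receptor, had 10.5, 131 and 99.9 CPM in PHD1+/+ and 84.9, 0 and 166 CPM in PHD1-/- and was at 0 in PHD1-/- replicate 2. The list summed to 1072 to 1786 CPM, against 125 to 216 CPM.

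Signalling genes included ligands and receptors. Bmp6, a bone morphogenetic protein and a selecting gene, had 494, 752 and 1187 CPM in PHD1+/+ and 764, 1217 and 816 CPM in PHD1-/-. The WNT5A receptor Ror1 had 368 to 879 CPM against 19.4 to 27.3 CPM in all other nuclei. Igf2, a growth factor known from leptomeninges, had 94.6, 287 and 458 CPM in PHD1+/+ and 109, 450.3 and 469 CPM in PHD1-/-, so replicate 1 was lowest in both genotypes. Il34, a ligand of the microglial receptor CSF1R, had 182 to 306 CPM against 13.2 to 34.3 CPM, with 355 to 637 CPM in mural nuclei. The chemokine gene Cxcl12 had 42 to 109.5 CPM, below the 182 to 2215 CPM of endothelial nuclei in replicates 2 and 3. Of complement genes, Serping1, the C1 inhibitor, had 487 to 633 CPM against 2.62 to 27 CPM. C3, the central complement component, had 15.9 to 82.8 CPM.

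Among transcription factors, Bnc2 (basonuclin 2) had 221, 1618 and 1521 CPM in PHD1+/+ and 400.3, 657 and 1722 CPM in PHD1-/-, against 32.6 to 53.1 CPM in all other nuclei. Foxp2 had 399 to 1009.8 CPM against 31.7 to 52.9 CPM, and mural and endothelial nuclei of replicates 2 and 3 had at most 26.3 CPM. Ebf1 was as high in other vessel-associated nuclei: mural nuclei had 1710.3 to 3056 CPM against 1473 to 1894 CPM here. Genes of contractile or scar-forming fibroblasts were mostly low, and only 5 of its 22 measured genes exceeded all other nuclei in each library. Adam12 led that list with 158 to 364 CPM, and Ccn2, a target of mechanical and TGF-beta signals, had 63.1, 86 and 317 CPM in PHD1+/+ and 12.1, 219 and 297 CPM in PHD1-/-.

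**Figure D1:**
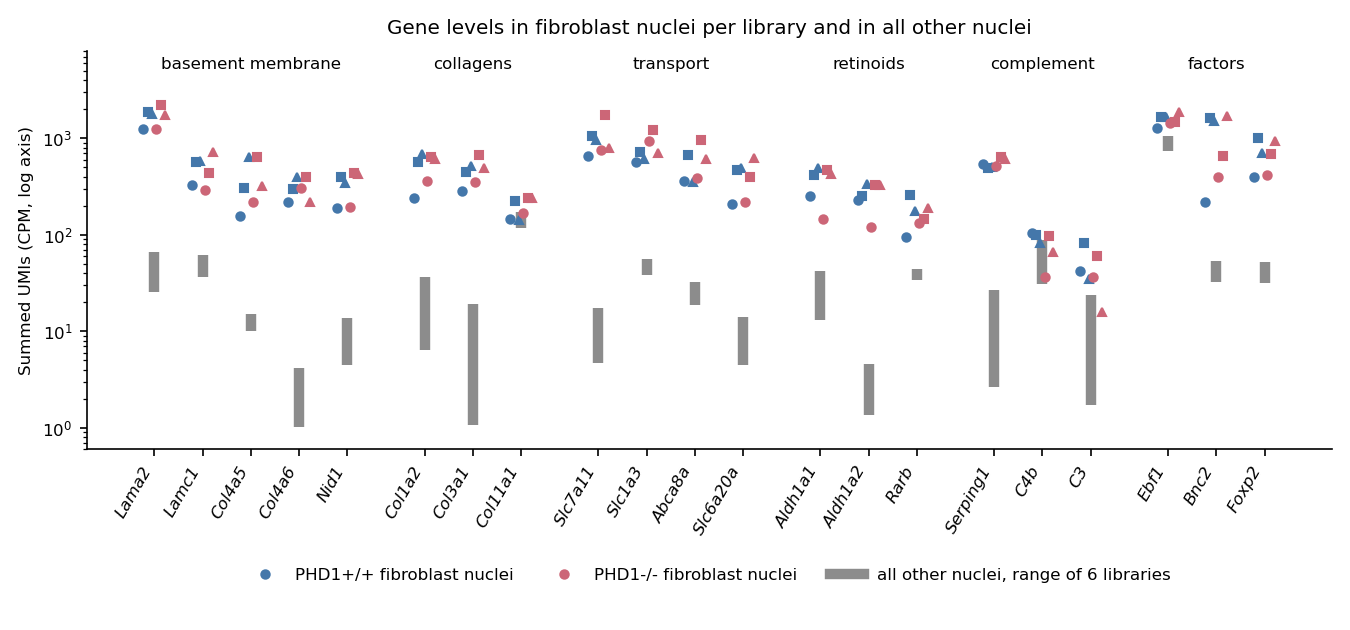
Levels of genes of 6 lists, those described in the text and C4b, on a log axis of CPM; points are the 6 libraries (blue PHD1+/+, red PHD1-/-; circle, square and triangle for replicates 1, 2 and 3) and grey bars span all other nuclei of the 6 libraries. Lama2, at 1237 to 2191 CPM, clears its grey bar in every library, while C4b overlaps its bar.

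The fibroblast nuclei fell into 7 clusters, which are described by number because they were made from the same counts. Cluster 1 (139 nuclei) was led by Ntng1 at 2172 CPM against 77.9 CPM in the other fibroblast nuclei, and by the integrin pair Itgb4 (851 against 42.1 CPM) and Itga6 (843 against 49.5 CPM), which form the laminin receptor of hemidesmosomes. Bnc2 reached 4195 CPM there, and Klf5, Cldn1 and Slc47a1 of the arachnoid barrier list had 594, 193 and 104 CPM. Cluster 1 had 0 CPM of Lama1 and 4.01 CPM of Aldh1a1. It thus held genes of the nerve root sheath, dural and arachnoid barrier lists at once.

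Cluster 2 (132 nuclei) was led by Mapk4, Prkag2, Igfbp2 and Aldh1a2, the last at 888 CPM against 127 CPM. The dicarboxylate transporter Slc13a3 had 344 CPM, Slc6a13 1074 CPM, Slc7a11 2189.8 CPM and Bmp6 2069 CPM, so the transporter and retinoid genes of the arachnoid were together. Cluster 6 (54 nuclei) shared part of this: Slc6a20a had 1648 CPM there and 911 CPM in cluster 2. Its own leading genes were Vtn (vitronectin, 4109 against 295 CPM), Atp13a5 (3766 against 282 CPM) and Phldb2. Ranbp3l had 2515 CPM in cluster 6 against 379 CPM in the others. Vtn and Atp13a5 are also read in pericytes. The mural list, which holds Atp13a5, summed to 3991 CPM in cluster 6, the highest of the 7 clusters, and to 1190 CPM in cluster 2. The pericyte gene Rgs5 was at 0 CPM in cluster 6, but also in clusters 2, 4, 5 and 7. Whether cluster 6 holds mural nuclei was not tested.

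Cluster 4 (99 nuclei) was led by Mamdc2, the lipid transporters Abca8a (2072 against 227 CPM) and Abca6, and Col15a1 (1001 against 92.1 CPM). Lama2 had 4239 CPM, Adamts12 3493 CPM, Dcn 4019 CPM and the protease gene Fap 480.5 CPM, while Slc6a20a had 5.00 CPM and Slc7a11 40.0 CPM. Cluster 5 (87 nuclei) was led by Lama1 (1347 against 70.0 CPM), Col4a6 (1347 against 163 CPM) and Cemip (5441 against 919 CPM), with Col4a5 at 1312 CPM. Those are the laminin and type IV collagen chains of a basement membrane. Slc7a11 was at 2808 CPM there and Itgb4 at 0 CPM.

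The other clusters were less clearly fibroblast. Cluster 3 (113 nuclei) had 103 nuclei, or 91.2%, from replicate 1 of the 2 genotypes and a median of 816 UMIs. Mbp, a myelin gene (1517 CPM), and Xist were among its leading genes, and it held 5052 CPM of Sod1 against 1048 CPM in the others. Dcn, a selecting gene, was at 1646 CPM. Cluster 7 (21 nuclei) had Gabrb1 and Gpc5, genes of neurons and glia, among its leading genes, with Dcn at 307 CPM, and all 21 nuclei carried at least 3 markers of another class. The first 5 leading genes of clusters 1, 2, 4 and 6, and Lama1, Col4a6 and Cemip in cluster 5, were higher in the cluster than in the other fibroblast nuclei in every library with at least 5 nuclei of that cluster.

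**Figure D2:**
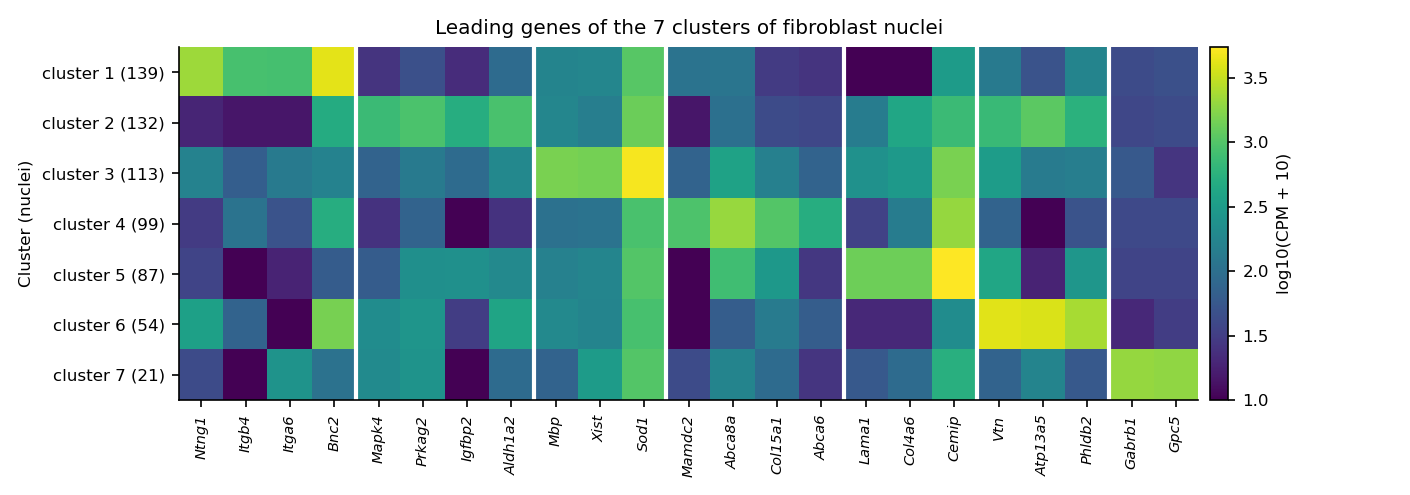
Level, as log10(CPM + 10), of the leading genes described for each of the 7 clusters (columns, in cluster order, with white lines between clusters) in each cluster (rows, nuclei in parentheses). Itgb4 is bright in cluster 1 and dark in cluster 5, where Lama1 reaches 1347 CPM.

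The first genotype comparison asks whether loss of PHD1 went with a different share of fibroblast nuclei. Their share of all nuclei kept was 1.02%, 2.16% and 1.83% in PHD1+/+ and 1.31%, 0.622% and 2.44% in PHD1-/-. The exact 95% binomial intervals, which cover counting error only, ran from 0.821% to 1.24%, 1.85% to 2.50% and 1.49% to 2.22%, and from 1.05% to 1.61%, 0.456% to 0.829% and 2.07% to 2.86%. PHD1-/- held both the lowest and the highest library, so the groups overlapped. The means were 1.67% ± 0.588 (SD, n = 3) and 1.46% ± 0.918 (SD, n = 3), and the difference of -0.212 percentage points was smaller than the spread between libraries (exact two-sided permutation test, p = 0.8, where 3 against 3 cannot go below 0.1). The share also depends on how much of the meninges stayed on each dissected cord, which was not measured, and fewer cells and less RNA per cell cannot be told apart. Its sign rests on 1 library: without PHD1+/+ replicate 2 the difference was 0.0333, and without PHD1-/- replicate 2 it was 0.205 percentage points.

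**Figure D3:**
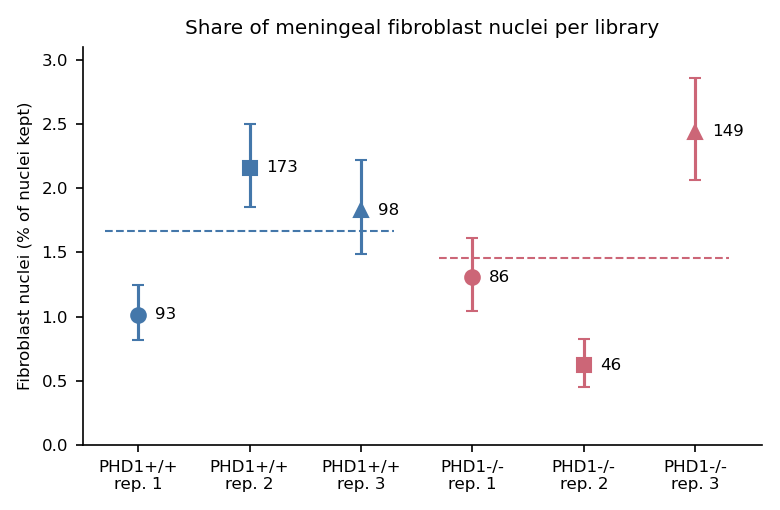
Share of fibroblast nuclei among nuclei kept (percent) in each library, with exact 95% binomial intervals as bars, the number of fibroblast nuclei beside each point and the group mean as a dashed line. The PHD1-/- libraries span 0.622% to 2.44% and enclose all PHD1+/+ libraries.

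The targeted gene was too low in these nuclei to check the genotype. Egln2 (chromosome 7, 27158658 to 27166802, GRCm38) encodes PHD1, a hydroxylase that marks proteins for turnover when oxygen is available. It had 4, 8 and 0 UMIs in PHD1+/+ and 1, 2 and 5 UMIs in PHD1-/-, which is 42, 25.5 and 0 CPM against 12.1, 24.3 and 15.9 CPM. The PHD1+/+ mean was 22.5 ± 21.2 (SD, n = 3) and the PHD1-/- mean 17.5 ± 6.25 (SD, n = 3), a difference of -5.04 CPM (exact two-sided permutation test, p = 0.7). Its sign turned in several settings, so no direction is given. In all other nuclei Egln2 was at 29.6, 18.5 and 16.4 CPM in PHD1+/+ and 9.63, 8.93 and 10.0 CPM in PHD1-/-, and there the groups did not overlap. Reads near the 3′ end can lie outside a deletion, so UMIs in PHD1-/- do not by themselves go against the label. Other genes of oxygen sensing were more readable: Arnt2, a partner of HIF subunits, had 137, 261 and 217 CPM in PHD1+/+ and 146, 292 and 284 CPM in PHD1-/-, and Hif1a had 42, 137 and 99.9 CPM in PHD1+/+ and 72.8, 158 and 128 CPM in PHD1-/-. Neither differed beyond the spread of the libraries (edgeR, unadjusted p = 0.568 and 0.519).

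The main genotype test summed the UMIs of the fibroblast nuclei in each library and fitted edgeR's quasi-likelihood model to the 3306 genes with enough counts. No gene passed the Benjamini-Hochberg threshold of 0.05 (0 called, 0%). At an unadjusted p under 0.05 there were 25 genes (0.756%), and DESeq2 gave 0 calls, with 10 genes (0.303%) below that unadjusted level. Both shares were smaller than a level of 0.05 would give by itself if no gene differed. The groups did not overlap for 143 of 3306 genes (4.33%), 88 higher and 55 lower in PHD1-/-. If all splits of 3 against 3 libraries were equally likely, a share of 0.1 would be apart. With the replicate number as a block edgeR called 6 genes (0.181%), 5 higher and 1 lower in PHD1-/-: Adamts6, the haemoglobin genes Hba-a1, Hba-a2, Hbb-bs and Hbb-bt, and Csmd1. None of these passed in the fit without the block. The labels do not say that the number marks a litter. In replicates 2 and 3 alone, without the block, 5 of 5739 genes were called (0.0871%): the 4 haemoglobin genes and Csmd1.

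Adamts6 had the smallest p in the main test. It encodes a secreted metalloproteinase of the ADAMTS family and lies at chromosome 13, 104287835 to 104496695. Its levels were 31.5, 25.5 and 82.2 CPM in PHD1+/+ and 97, 279.9 and 149.9 CPM in PHD1-/-, from 3, 8 and 14 UMIs and 8, 23 and 47 UMIs, and the groups did not overlap. This gave a log2 fold change of 1.88 ± 0.52 (SE), with edgeR adjusted p = 1.000 without the block and 0.0204 with it. In replicates 2 and 3 alone the log2 fold change was 2.01 and the edgeR adjusted p 0.245. In all other nuclei Adamts6 had 57.9, 95.3 and 90.2 CPM in PHD1+/+ and 75.7, 96.8 and 96.2 CPM in PHD1-/-, with little difference between the genotypes. A single nucleus held 11 of the 23 UMIs of PHD1-/- replicate 2, and without the top nucleus of each library the levels were 21.7, 22.7 and 71.3 CPM against 73.7, 150 and 125 CPM, still without overlap.

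Adamts6 was concentrated in clusters 5 and 2. In the Lama1 cluster, number 5, it had 11 UMIs in 49 PHD1+/+ nuclei, or 173 CPM (95% Poisson interval 86.4 to 310 CPM), and 34 UMIs in 38 PHD1-/- nuclei, or 670 CPM (464 to 936 CPM). In the other clusters it had 14 UMIs, or 27.1 CPM (14.8 to 45.5 CPM), and 44 UMIs, or 103 CPM (74.8 to 138 CPM). Both parts were thus higher in the summed PHD1-/- nuclei. The intervals pool libraries and cover counting error only, and no test over nuclei was made. By library, cluster 5 had 0, 81.3 and 308 CPM in PHD1+/+ and 224, 701 and 721 CPM in PHD1-/-, so the groups overlapped there. Replicate 1 had only 1 PHD1+/+ nucleus and 6 PHD1-/- nuclei in that cluster. Adamts6 was picked for its p in these same counts. Cluster 5 made up 1.08%, 17.3% and 18.4% of fibroblast nuclei in PHD1+/+ and 6.98%, 32.6% and 11.4% in PHD1-/-.

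The 4 haemoglobin genes were higher in PHD1-/- replicates 2 and 3, and single nuclei carried much of that. Hbb-bs had 515, 79.6 and 106 CPM in PHD1+/+ and 509, 1655 and 689 CPM in PHD1-/-, so PHD1+/+ replicate 1 overlapped the PHD1-/- group. In PHD1-/- replicate 2, 1 nucleus of cluster 1 held 113 of 136 UMIs, and without it the level was 294 CPM in place of 1655 CPM. In PHD1-/- replicate 3, 1 nucleus held 78 of 216 UMIs, and without it the level was 445 CPM. The same nuclei held 34 of 35 and 21 of 61 UMIs of Hba-a2. The edgeR adjusted p with the block was 0.000988 for Hbb-bs and 0.000988 for Hba-a1. Haemoglobin is the oxygen carrier of red blood cells, and all other nuclei of the libraries also differed in it, with 308, 34.7 and 124 CPM in PHD1+/+ and 879, 302 and 143 CPM in PHD1-/- of Hbb-bs. The part of red blood cell RNA in these levels was not tested.

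Csmd1, a large complement-regulating membrane protein made by neurons and glia, was the gene called lower with the block. Its levels were 578, 439.6 and 206 CPM in PHD1+/+ and 473, 85.2 and 67 CPM in PHD1-/-, and PHD1-/- replicate 1 overlapped the PHD1+/+ group. The log2 fold change was -1.07 ± 0.83 (SE) without the block (edgeR adjusted p = 1.000) and -1.31 with it (edgeR adjusted p = 0.0415). All other nuclei held far more, 1480.1, 2226 and 2487 CPM in PHD1+/+ and 1671, 2108 and 2443 CPM in PHD1-/-. In PHD1+/+ replicate 3, 1 nucleus of the mixed cluster 7 held 19 of 35 UMIs, and in PHD1+/+ replicate 2 another held 42 of 138. Of all 295 UMIs, 95 lay in cluster 4, 90 in cluster 3 and 87 in cluster 7. The log2 fold change was -0.77 without cluster 7 and -0.95 without nuclei carrying 3 or more markers of another class.

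The 8 genes with the smallest p in each direction, none of them called, are described next. Lcorl, a transcriptional regulator tied to body size, had 42, 79.6 and 82.2 CPM in PHD1+/+ and 133, 109.5 and 185 CPM in PHD1-/-, a log2 fold change of 1.04 ± 0.34 (SE). Ppp6c, the catalytic subunit of protein phosphatase 6, had 42, 70.1 and 52.9 CPM in PHD1+/+ and 133, 122 and 108 CPM in PHD1-/-, a log2 fold change of 1.02 ± 0.34 (SE). Both groups were apart for each of these genes, and neither differed to that degree in all other nuclei. Ksr1, Pabpc1, Immt and Atg16l1 had log2 fold changes from 0.85 to 1.02, and Hbb-bt was the other gene of the 8. On the lower side, Dcun1d5, a factor for cullin neddylation, had 137, 102 and 106 CPM in PHD1+/+ and 36.4, 48.7 and 47.8 CPM in PHD1-/-, a log2 fold change of -1.36 ± 0.39 (SE). Plxdc2, a plexin-domain membrane protein, had 441, 726 and 558 CPM in PHD1+/+ and 328, 268 and 437 CPM in PHD1-/-, a log2 fold change of -0.76 ± 0.28 (SE), and 382, 519.6 and 444 CPM in PHD1+/+ and 405, 526 and 451 CPM in PHD1-/- in all other nuclei. Tsc22d3, the glucocorticoid-induced leucine zipper gene, had 147, 82.8 and 135 CPM in PHD1+/+ and 48.5, 36.5 and 70.1 CPM in PHD1-/-. Kpna4, Sf3b2, Dnm1, Ctnna3 and Hace1 had log2 fold changes from -1.21 to -0.83. The groups overlapped for Dnm1. Of the 189 Ctnna3 UMIs, 122 lay in the mixed cluster 7 and 47 in cluster 3. The edgeR adjusted p was 1.000 for each gene named in this paragraph.

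**Figure D4:**
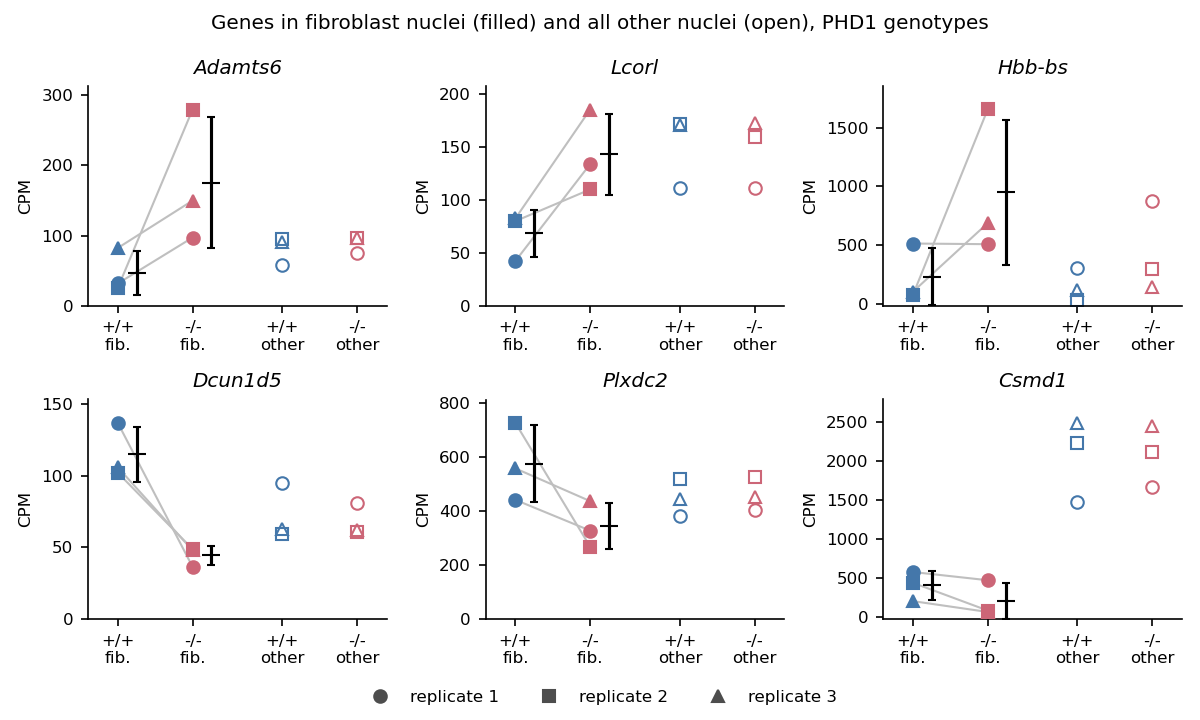
CPM of 6 genes in fibroblast nuclei (filled symbols, grey lines join replicates of the same number, black bars are the mean and SD of 3 libraries) and in all other nuclei (open symbols); circle, square and triangle are replicates 1, 2 and 3. The Adamts6 panel shows all PHD1-/- fibroblast values, from 97.0 CPM up, above the PHD1+/+ values, the highest of which was 82.2 CPM.

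No matrix gene passed the genotype test. Nor did a gene of any other list: 0 list genes passed the threshold in the main test, against 0% of all genes tested, and the median log2 fold change over all 3306 genes was -0.04. Of the fibrillar and associated collagens 9 of 18 were tested, 8 had positive and 1 a negative estimate, and the median was 0.10. The basement membrane list had 7 positive and 8 negative of 15 tested and a median of -0.02. Proteoglycans and matrix glycoproteins had 11 positive and 11 negative of 22, and a median of 0.00. For Lama2 the estimate was 0.03 ± 0.24 (SE) and for Col3a1 0.23 ± 0.26 (SE), neither larger than its error, and Col3a1 turned to -0.31 without nuclei carrying 3 or more markers of another class. Solute transporters had a median of 0.12 over 14 tested genes, and the retinoid list -0.16 over 6. A p that misses the threshold does not show that these genes were equal in the 2 genotypes.

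Interferon-stimulated genes, which the title of the study names for astrocytes, were barely readable here. Of 46 measured genes, 7 had enough counts to be tested, 3 with positive and 4 with negative estimates, and the median was -0.13. Their summed level was 1934, 1539 and 1897 CPM in PHD1+/+ and 1977, 1692 and 1546 CPM in PHD1-/-, so the groups overlapped. B2m, the light chain of MHC class I, had 336, 89.2 and 64.6 CPM in PHD1+/+ and 279, 73 and 51 CPM in PHD1-/-, with replicate 1 highest in both genotypes. Glycolysis and HIF target genes had a median of -0.05 over 8 tested genes, and Gapdh had 315, 86 and 129 CPM in PHD1+/+ and 230.5, 170.4 and 118 CPM in PHD1-/-. That list, too, followed replicate 1 more than genotype.

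Ribosomal protein and respiratory chain genes followed the same library pattern. Rpl13 had 736, 149.7 and 247 CPM in PHD1+/+ and 558, 304 and 297 CPM in PHD1-/-, and Cox4i1, a subunit of cytochrome c oxidase, had 999, 219.8 and 241 CPM in PHD1+/+ and 691, 341 and 226 CPM in PHD1-/-. Both were highest in PHD1+/+ replicate 1 and next in PHD1-/- replicate 1. Of 24 ribosomal protein genes 22 had negative estimates, with a median of -0.31. Without PHD1+/+ replicate 1 that median was 0.45, and in replicates 2 and 3 alone it was 0.02. The respiratory chain list went from -0.32 to 0.62 and 0.15 in the same settings. Without PHD1+/+ replicate 1 the fit still held PHD1-/- replicate 1, the other high library. The ribosomal list summed to 8788 and 6211 CPM in these 2 libraries. The sign of both lists thus depended on which replicate 1 libraries were in the fit.

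**Figure D5:**
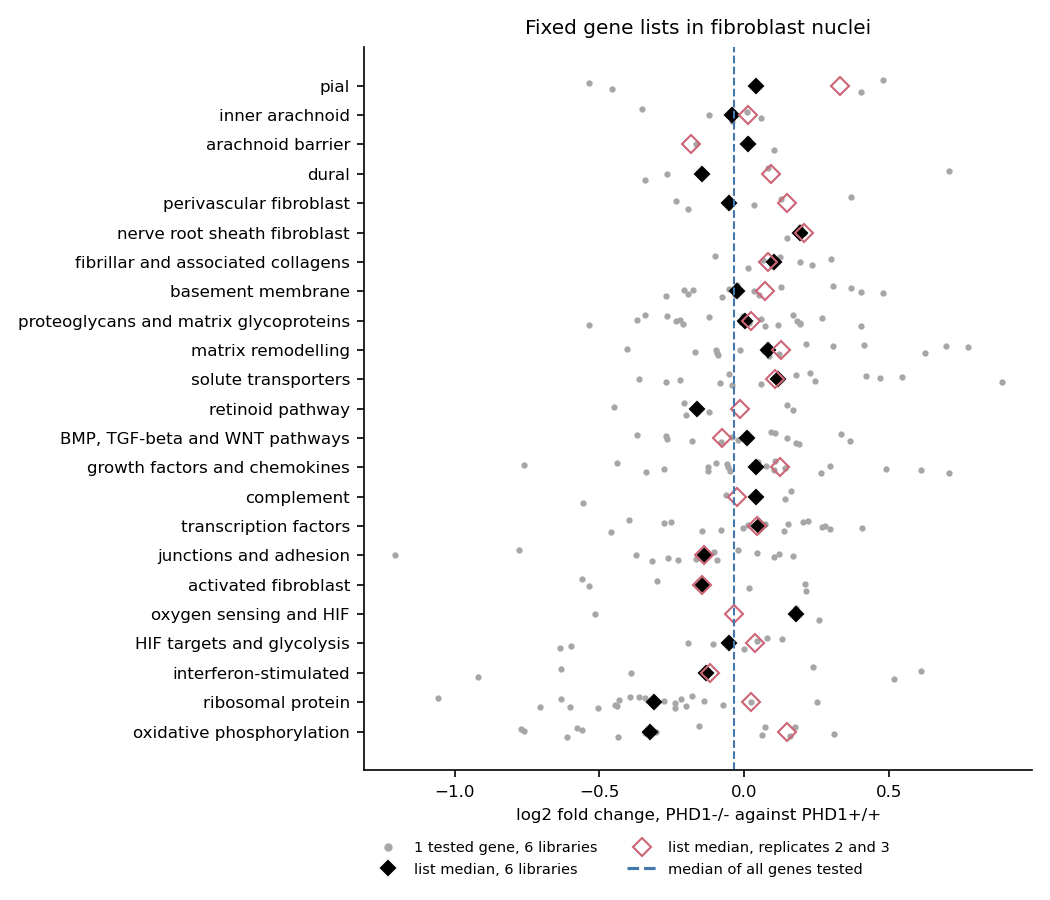
log2 fold change, PHD1-/- against PHD1+/+, of each tested gene (grey points) in 23 gene lists, with the list median over 6 libraries (black) and over replicates 2 and 3 alone (red, open); the dashed line is the median of all genes tested, -0.04. Ribosomal protein genes sit left of the line with 6 libraries, with a median of -0.31, and not with replicates 2 and 3, where the median is 0.02.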

How the data were processed

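Per the labels, lumbar cord nuclei were sequenced with the 10x Genomics 3′ method, and per the submitters' processing notes Cell Ranger (version 5.0.2) and Scanpy (version 1.8.1) were used with the mm10 build; the deposited count matrices name Cell Ranger 5.0.1 in their headers. The authors deposited raw UMI counts per gene and barcode, with 32285 genes. They were used as they stand, with 500 UMIs and 5% mitochondrial UMIs as limits, and no doublet caller was run; nuclei with 3 or more markers of another class were counted instead. The fibroblast nuclei, gene lists and named genes were chosen with earlier results of these data known.

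UMI counts were summed over fibroblast nuclei per library. Genes were tested in edgeR 4.0.16 (TMM, filterByExpr, quasi-likelihood test, Benjamini-Hochberg at 0.05), in R 4.3.3, with DESeq2 1.42.0 as an alternative; the code was tested on simulated data. Shares and Egln2 were tested by exact two-sided permutation over libraries. Nothing in the labels says that libraries of a genotype are more than 1 animal each, and p-values measure only the spread between libraries. Clusters used Scanpy 1.11.5 (1500 variable genes, 15 principal components, 15 neighbours, Leiden resolution 0.6). Gene positions are those of GENCODE on GRCm38, the assembly also called mm10.

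Per the labels the mice came as littermate pairs. Deviations from the group means correlated at 0.58, 0.24 and 0.40 between libraries numbered 1, 2 and 3 of the 2 genotypes over 3306 genes. The main tests were unpaired, and the number was used as a pair only in the replicate block alternatives. The labels do not say that the number marks a litter. PHD1+/+ replicate 2 correlated more with PHD1-/- replicate 3 (0.45) than with PHD1-/- replicate 2. Between PHD1+/+ replicate 3 and PHD1-/- replicate 2 the correlation was 0.23. Genes named in the text are the 8 selecting genes, Egln2 and Sod1, up to 5 genes of highest mean CPM per list, the 8 genes of smallest p per direction, genes that passed a threshold, and markers of other classes. The leading genes of clusters, Apod, Uty, Xist and some list genes below the first 5 (Slc22a8, Stra6, Efemp1, Igfbp7, Col11a1, Col4a6, Foxp2, Il34, Cldn1, Slc47a1, Slc13a3) were chosen after their values were seen. Nov, Mx1 and Mx2 matched no symbol of the tables and were not analysed here. Some genes that this rule or the clusters would name are not reported here.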

Additional observations from a re-analysis of the deposited data

How the results depend on the processing

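Depth limits these results: the fibroblast nuclei of a library held 82162 to 313919 UMIs, and a gene at 3 UMIs was at 9.56 to 36.5 CPM. The share of fibroblast nuclei kept its sign in 10 of 12 alternatives; leaving out 1 library gave differences from -0.704 to 0.205 percentage points, positive without PHD1+/+ replicate 2 or PHD1-/- replicate 2. The exact paired test over same-numbered libraries (replicate block) gave p = 1 for the share and p = 0.75 for Egln2, and changed no call. The Egln2 difference was 3.41 CPM without nuclei carrying 3 or more markers of another class, -16.3 to 4.73 CPM when 1 library was left out, and 7.4 CPM in replicates 2 and 3 alone. The count of called genes was 0 in the main fit, 6 with the replicate block, 5 of 5739 genes (0.0871%) in replicates 2 and 3 alone (4 haemoglobin genes and Csmd1), and 0 to 3 when 1 library was left out, the 3 being haemoglobin genes called without PHD1+/+ replicate 1. With DESeq2, DESeq2 size factors, no filter, 4 of the 8 genes or without mixed nuclei it was 0. Restricting to replicates 2 and 3 and leaving out the mixed cluster were chosen after seeing the data. Of 314 alternative values of the 24 genes whose fold change or test is given, 295 kept their direction and side of the threshold. In 14 the gene newly passed it: the 6 genes called with the replicate block, the 5 in replicates 2 and 3 alone and the 3 without PHD1+/+ replicate 1. The direction turned in 5: Lama2 ranged from -0.120 to 0.168 when 1 library was left out, below 0 in 2 of these settings, and was -0.0116 without the mixed cluster, Col3a1 was -0.307 without nuclei carrying 3 or more markers of another class, and Hif1a was -0.0129 with 4 of the 8 genes needed. Values with no adjusted p in DESeq2 were left out of these counts. Also, of 266 list medians 257 moved by less than the spread and 9 more; the cause was not tested.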
